A study of Bos taurus with 18 samples.

Results

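The comparison described here sets the exosomal (EX) fraction of plasma against the non-exosomal free circulating (FC) fraction in Japanese Black steers (*Bos taurus*) at about 25 months of age. Plasma came from 3 steers, and each plasma sample was separated with a spin column kit into 1 EX and 1 FC RNA preparation, so that 3 EX and 3 FC small RNA libraries were compared as 3 pairs. The kit works by spin columns with a proprietary resin, and EX is here the RNA of what it purifies as exosomes; vesicle proteins were not analysed here. The same 3 steers were also sampled at about 20 and 30 months, and all 18 libraries came from EDTA plasma taken in the fattening period. A miRNA was kept when its CPM-normalized count (CPM, the count scaled to the total assigned to miRNAs in the library) was above 5 in at least 3 of the 6 libraries. This kept 328 of 1071 listed miRNAs, 312 known ones and 16 of 41 entries that the study lists as miRNA candidates, which are named here candidate-miR with their number in the deposited table. Of the 328, 241 were above 5 CPM in all 6 libraries, and the kept miRNAs took at least 99.95% of the counts of every library. The kept miRNA nearest to the limit was *bta-miR-10162-5p*, of which the library that decided inclusion, the lowest of its 3 highest, stood at 5.07 CPM, and the nearest one left out was *candidate-miR-15*, at 4.97 CPM.

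MicroRNAs are short RNAs that guide Argonaute proteins to messenger RNAs, mostly by pairing through the seed, the bases 2 to 8 from the 5′ end. In plasma they travel inside extracellular vesicles such as exosomes or outside them, bound to Argonaute and other proteins or to lipoproteins. Many circulating miRNAs come from blood cells, vessel wall and liver, and several are used as markers of these sources, such as miR-451 for red blood cells, miR-150 for lymphocytes, miR-223 for myeloid cells and miR-122 for hepatocytes.

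The mature sequences of the miRNAs on which the comparison turns are given 5′ to 3′ as listed in the deposited count table, with the seed in capitals. The first 5 differed between fractions at an FDR under 0.05 and had an estimated difference of more than 2-fold.
candidate-miR-38: aUAAUGAAcaauaaaacu
candidate-miR-40: gUCCGGUUguucuucucu
bta-miR-12034: cCCCGGGGagcccggcggu
bta-miR-184: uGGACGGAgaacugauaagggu
bta-miR-2284w: aAGAGUUUguucggguuucuc
The next 3 also met these limits, but their values stand crosswise between libraries, as described next.
bta-miR-181b: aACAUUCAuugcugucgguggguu
bta-miR-194: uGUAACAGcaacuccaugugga
bta-miR-194b: cACAUGGAguugcuguuaca
The others are markers of blood cells, and families with more than 1 member higher in FC.
bta-miR-150: uCUCCCAAcccuuguaccagugu
bta-miR-342: uCUCACACagaaaucgcacccaucu
bta-miR-451: aAACCGUUaccauuacugaguuu
bta-miR-486: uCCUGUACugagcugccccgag
bta-miR-144: uACAGUAUagaugauguacuag
bta-miR-192: cUGACCUAugaauugacagccag
bta-miR-215: aUGACCUAugaauugacagaca
bta-miR-148a: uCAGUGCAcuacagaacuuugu
bta-miR-148b: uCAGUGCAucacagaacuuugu
bta-miR-30a-5p: uGUAAACAuccucgacuggaagcu
bta-miR-30d: uGUAAACAuccccgacuggaagcu
bta-miR-30e-5p: uGUAAACAuccuugacuggaagcu
Counted from 1 at the 5′ end, *bta-miR-192* and *bta-miR-215* differ by C1A and C20A over 22 compared positions, and *bta-miR-148a* and *bta-miR-148b* by C9U and U10C. *bta-miR-30a-5p* differs from *bta-miR-30d* by U12C and from *bta-miR-30e-5p* by C13U. In each of these families the seed is the same. *candidate-miR-38* and *candidate-miR-40* are both 18 bases long, share no seed with each other and differ at 14 of 18 positions. The sequence of *bta-miR-194b* is the reverse complement of bases 1 to 20 of *bta-miR-194*.

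Before the results, 3 features of the libraries have to be stated. The counts assigned to miRNAs were 1837454 to 2437284 per EX library and 6958135 to 11065929 per FC library, so that the FC library of a pair was 3.79 to 4.54 times deeper, and 3 counts, the limit that a count of 0 allows for counting error alone, were worth 1.23 to 1.63 CPM in an EX library and 0.271 to 0.431 CPM in an FC library. In the FC library of replicate 3, 101 counts from *bta-miR-6526* downward were displaced by 1 name relative to the CPM values and were recomputed from the latter, as were 77 to 90 counts of each FC library at 30 months. Over 116 miRNAs of that part, the log2 values of this library had a Pearson's r of 0.978 with the mean of the other 2 FC libraries when read by the CPM rows and 0.142 when read by the count rows, across miRNAs, which are not independent replicates.

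The last feature concerns 3 names. In the EX libraries of replicates 1, 2 and 3 the value under *bta-miR-194* was 0 CPM, against 7837, 10494 and 3767 CPM in FC. Under *bta-miR-181b* the EX libraries held 5791, 7763 and 3135 CPM and the FC libraries 264, 244 and 301 CPM. Under *bta-miR-194b* the EX libraries held 250, 283 and 369 CPM and all 3 FC libraries 0. The EX values under *bta-miR-181b* are thus near the FC values under *bta-miR-194*, and the EX values under *bta-miR-194b* near the FC values under *bta-miR-181b*. The same crosswise order stands in 7 of the 9 EX libraries of the series, in both deposited tables, and in none of the other 11 libraries. At 20 months the EX libraries of replicates 1 and 2 held 5472 and 5793 CPM under *bta-miR-194* and 332 and 250 CPM under *bta-miR-181b*, as the FC libraries did, while replicate 3 held 0 and 4720 CPM. *bta-miR-194* is encoded in clusters with *bta-miR-192* and *bta-miR-215*. Relative to *bta-miR-192* of the same library, the value under *bta-miR-194* in FC was 10.4%, 13.9% and 12.5%, and the value under *bta-miR-181b* in EX was 14.7%, 16.6% and 15.7%. When the EX values of the 3 names were moved by 1 name, so that each stood with the FC values nearest to it, the log2 fold change, EX minus FC, was −0.30 for *bta-miR-194* (standard error, SE, 0.07, FDR 0.0789) and 0.22 for *bta-miR-181b* (SE 0.13, FDR 0.382) in the edgeR quasi-likelihood test, and *bta-miR-194b* had no counts. This move was chosen after seeing the values, so small differences follow from the choice and cannot test an exchange. Whether names were exchanged when the tables were made was not tested. The counts of called miRNAs at 25 months are therefore given with and without these names, and no fold is given for them.

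**Figure D1:**
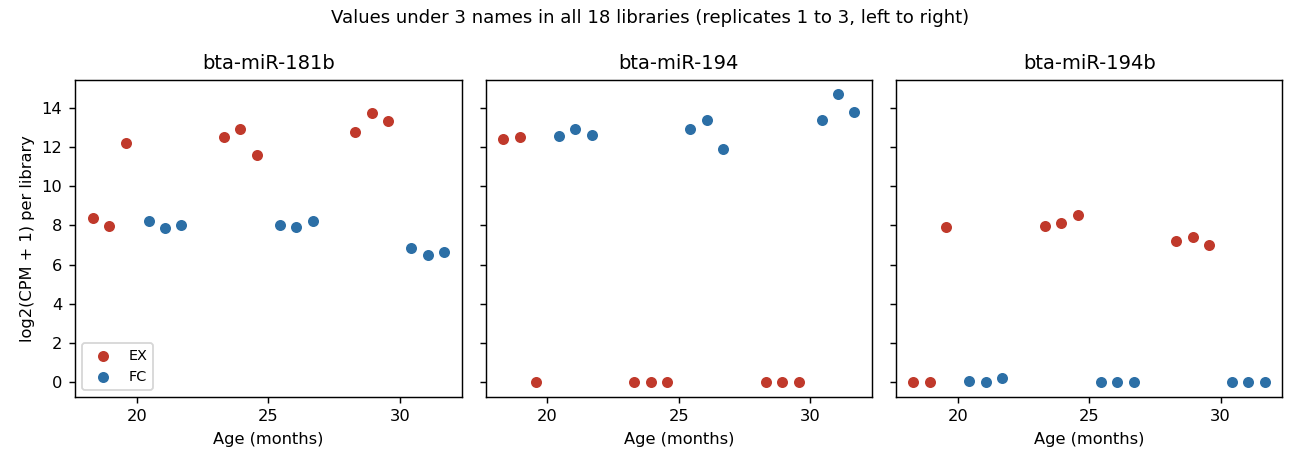
Values under *bta-miR-181b*, *bta-miR-194* and *bta-miR-194b* in all 18 libraries, as log2(CPM + 1) on the vertical axis against age in months, with EX in red and FC in blue and replicates 1 to 3 from left to right. At 25 and 30 months all EX libraries lie above all FC libraries under *bta-miR-181b* and *bta-miR-194b* and at 0 under *bta-miR-194*, and at 20 months only the EX library of replicate 3 does so.

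At 25 months, 8 DE-miRNAs differed between EX and FC with an FDR under 0.05 and |log2 fold change| > 1, of 328 tested (2.44%). Of these, 6 were higher in EX (1.83%) and 2 higher in FC (0.61%). Without the 3 crosswise names 5 remained, and a fit of the other 325 miRNAs also gave 5, 4 higher in EX and 1 higher in FC. The 4 higher in EX were *bta-miR-12034*, *candidate-miR-38*, *bta-miR-184* and *candidate-miR-40*, and the 1 higher in FC was *bta-miR-2284w*. The counts were tested in edgeR by its quasi-likelihood method with TMM factors, the plasma sample as a block and Benjamini-Hochberg adjustment, and 82 miRNAs had an unadjusted p under 0.05. Folds compare shares of the miRNA counts of each library after this scaling, and they do not give amounts per volume of plasma. Without replicate 2 the 1 DE-miRNA was *bta-miR-194*, a crosswise name, so that none of the 5 was called. Without replicate 3, whose FC library was realigned, there were 6, the 3 crosswise names with *bta-miR-12034*, *candidate-miR-38* and *candidate-miR-40*, and without replicate 1 there were 16, of which 13 were other names. DESeq2 called 16, again with 13 other names.

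*bta-miR-12034*, a bovine miRNA of late entry in miRBase with no other listed miRNA sharing its seed, was the DE-miRNA with the widest gap among these 5. Its EX libraries stood at 354, 896 and 721 CPM and its FC libraries at 2.17, 14.8 and 17.7 CPM for replicates 1, 2 and 3. Every EX library was above every FC library, and replicate 1 was the lowest of both fractions. Abundance was 71.5-fold higher in EX (log2 fold change 6.16, SE 0.47, FDR 0.0038). The value rests on 796 to 1758 counts in EX and 21 to 196 counts in FC. Its sequence has 89.5% G and C, against a median of 45.5% over the kept miRNAs.

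The candidates *candidate-miR-38* and *candidate-miR-40*, short sequences with no assigned function, separated the fractions in the same way. *candidate-miR-38* stood at 169, 342 and 115 CPM in EX and at 5.69, 15.2 and 7.68 CPM in FC. Replicate 2 was the highest of both fractions, the groups did not overlap, and the log2 fold change was 4.50 (SE 0.31, FDR 0.0038), which is 22.7-fold. *candidate-miR-40* stood at 471, 641 and 325 CPM in EX and at 20.8, 52.0 and 28.6 CPM in FC. Again replicate 2 was the highest of both fractions and the groups did not overlap (log2 fold change 3.95, SE 0.29, FDR 0.0038), a 15.4-fold difference. The other 14 kept candidates had no call, so that 2 of 16 were called beside 3.96% of all kept miRNAs called higher in EX at FDR under 0.05, and the median log2 fold change of the 16 was −0.16, near the −0.23 of all 328.

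*bta-miR-184*, a miRNA conserved across animals and known from cornea, lens and nervous tissue, stood at 705, 180 and 125 CPM in EX and at 16.04, 17.8 and 11.4 CPM in FC. The EX library of replicate 1 was well above the other 2, while the FC libraries were close together, and the groups did not overlap. The log2 fold change was 4.15 (SE 0.56, FDR 0.0167), or 17.7-fold.

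*bta-miR-2284w* belongs to the large miR-2284 family of ruminants. It stood at 51.1, 66.4 and 59.5 CPM in EX and at 145, 128 and 193 CPM in FC. All FC libraries were above all EX libraries, and abundance was 2.47-fold higher in FC (log2 fold change −1.31, SE 0.23, FDR 0.0342). Some of its counts are fractional, since reads that match several mature sequences were split. It was the only member of the family called among 24 kept of 148 listed members, no more than the 9.15% of all kept miRNAs at FDR under 0.05, and the family's median log2 fold change was −0.41, with 18 members below 0 and 6 above.

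**Figure D2:**
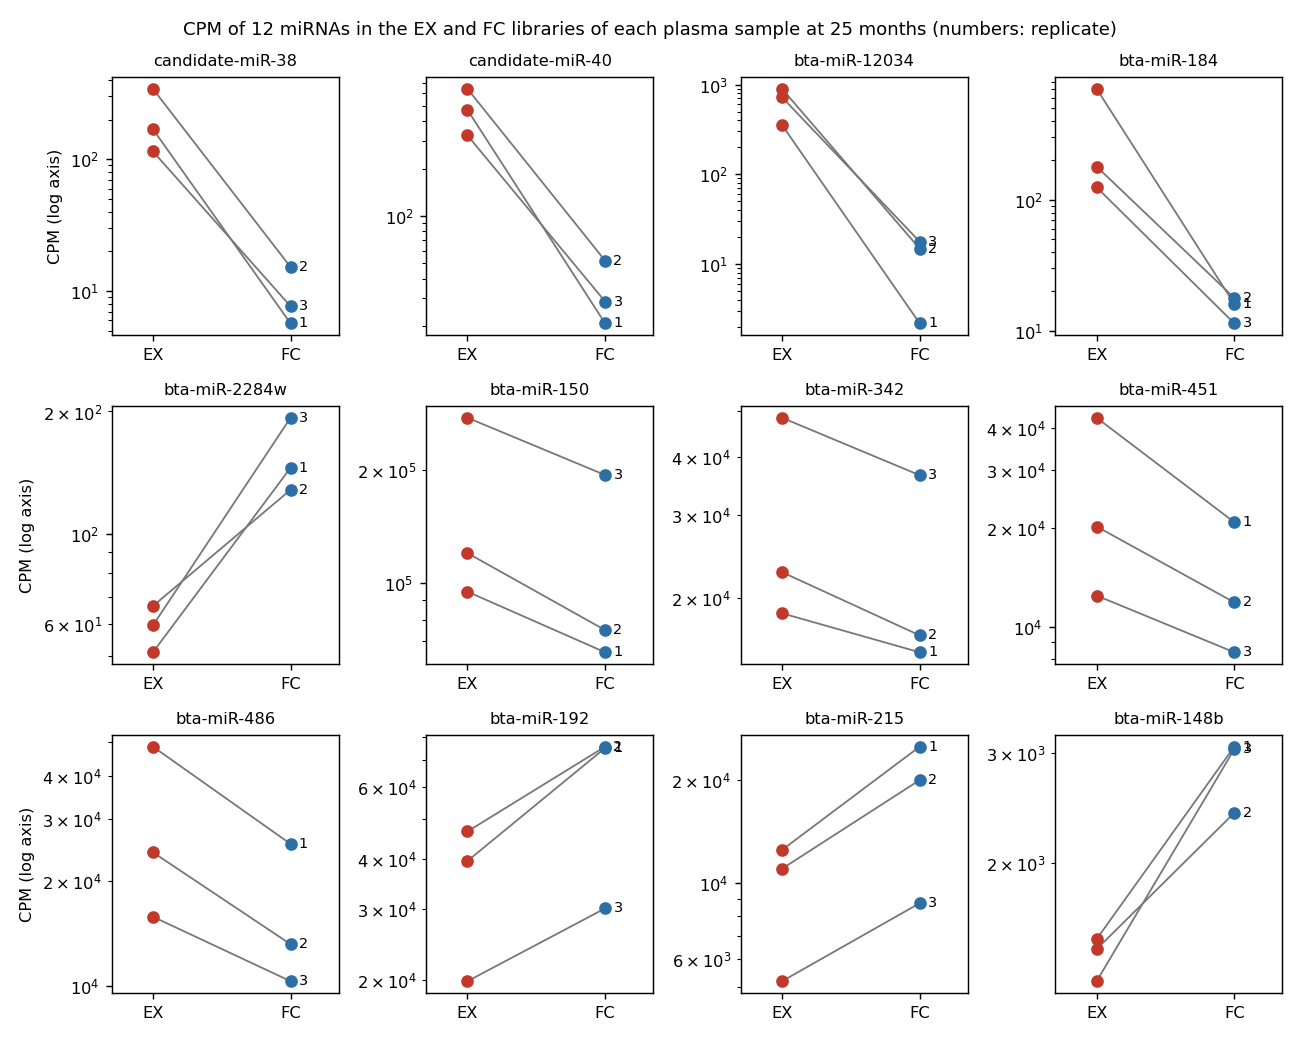
CPM-normalized counts (log axis) of 12 miRNAs in the EX (red) and FC (blue) libraries at 25 months, with a line joining the 2 libraries of a plasma sample and the replicate number beside the FC point. All 3 lines run the same way in each panel, steeply in the first 4 panels (15.4-fold to 71.5-fold) and by less than 2-fold for *bta-miR-150* to *bta-miR-148b*.

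Below the 2-fold limit, more miRNAs differed consistently between the pairs. At FDR under 0.05 alone there were 30 (9.15% of 328), 13 higher in EX (3.96%) and 17 higher in FC (5.18%), and all 30 had the same direction in all 3 pairs, which a paired test favours and which held for 167 of all 328. Without the 3 names 27 remained, 11 higher in EX and 16 higher in FC, and the fit of the other 325 called 29, 12 and 17. The split depends on the scaling: with RLE size factors in place of TMM it was 25 higher in EX and 15 higher in FC (23 and 14 without the 3 names), and with library totals only 14 and 26 (12 and 25), against a median log2 fold change over all kept miRNAs of −0.15 and −0.31 (−0.23 with TMM). Of the 30, 28 were called with RLE factors and 29 with library totals, in the same direction. Of these 30, 22 had |log2 fold change| of at most 1, from 0.43 to 0.88 for the 7 higher in EX and from −0.92 to −0.32 for the 15 higher in FC. Most were abundant: 22 of the 30 (20 of the 27) had a mean above 1000 CPM over the 6 libraries, as did 79 of all kept miRNAs. The libraries of the 2 fractions did not overlap for 55 of 328 miRNAs (16.8%), 16 with EX above FC (4.88%) and 39 with FC above EX (11.9%), or 14 and 38 without the 3 names. Without the block only 7 of 328 were called at FDR under 0.05, the 3 crosswise names and the 4 DE-miRNAs higher in EX. Without replicate 2 none of the 27 was called, without replicate 1 there were 23, and without replicate 3 there were 12, namely *bta-miR-12034*, *candidate-miR-38*, *candidate-miR-40*, *bta-miR-150*, *bta-miR-451*, *bta-miR-486*, *bta-miR-101*, *bta-miR-192*, *bta-miR-215*, *bta-miR-143*, *bta-miR-148b* and *bta-miR-186*. The 4 lost without replicate 1 were *bta-miR-125b*, *bta-miR-146a*, *bta-miR-30d* and *bta-miR-374a*. In a fit with the 20-month libraries added (12 libraries) 22 of the 27 were called, without *bta-miR-125b*, *bta-miR-142-3p*, *bta-miR-144*, *bta-miR-342* and *bta-miR-374a*. With all 18 libraries 18 were called, without these 5 and *bta-miR-146a*, *bta-miR-150*, *bta-miR-2284w* and *bta-miR-451*. The order of the steers was often the same in both fractions, as the values below show.

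**Figure D3:**
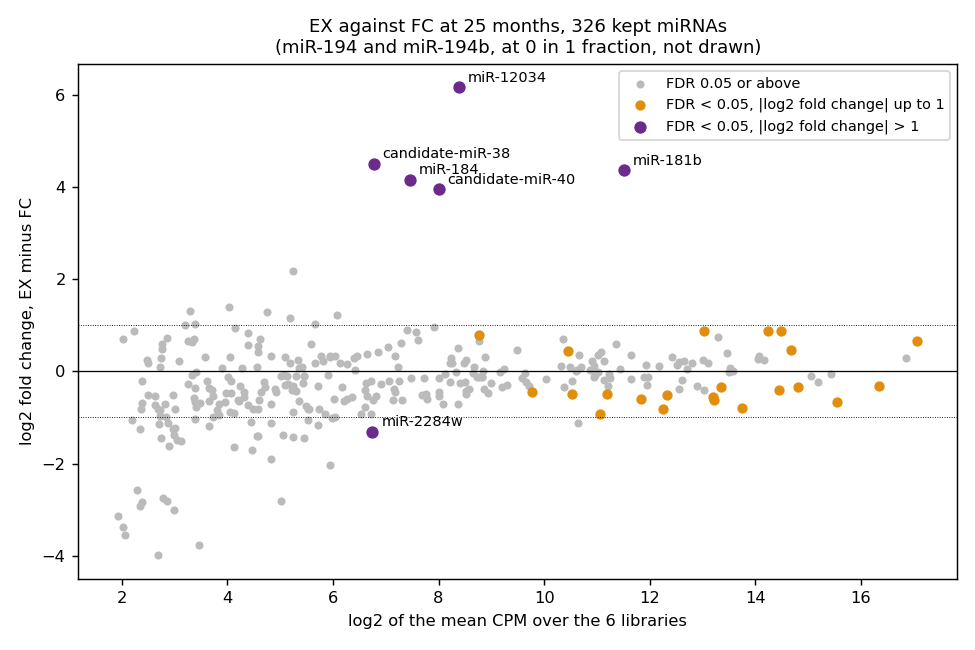
Log2 fold change, EX minus FC, at 25 months (vertical axis) against log2 of the mean CPM over the 6 libraries (horizontal axis) for the kept miRNAs, with *bta-miR-194* and *bta-miR-194b* not drawn because they are at 0 in 1 fraction. The DE-miRNAs (purple) stand at 3.95 to 6.16, except *bta-miR-2284w* at −1.31, and the other called miRNAs (orange) lie within 1 of 0 and mostly at high abundance.

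The 3 red blood cell miRNAs were all called higher in EX, as were 3.96% of all kept miRNAs. *bta-miR-451*, a miRNA of red cells that is matured by Argonaute instead of Dicer, stood at 43037, 20165 and 12461 CPM in EX and at 20781, 11886 and 8394 CPM in FC. Replicate 1 was the highest and replicate 3 the lowest in both fractions, so the groups overlapped while every pair had the higher value in EX. The log2 fold change was 0.87 (SE 0.12, FDR 0.0183), and FDR was 0.0689 with 18 libraries. *bta-miR-486*, also abundant in red cells, stood at 48398, 24151 and 15809 CPM in EX and at 25522, 13194 and 10345 CPM in FC, in the same order of replicates (log2 fold change 0.88, SE 0.09, FDR 0.00662). The partner of *bta-miR-451* in its cluster, *bta-miR-144*, stood at 808, 539.9 and 288 CPM in EX and at 499, 280 and 209 CPM in FC (log2 fold change 0.78, SE 0.14, FDR 0.0336), a call lost with 12 libraries (FDR 0.141), with 18 libraries (FDR 0.491) and without replicate 3 (FDR 0.0543). The list took 2.86% to 9.22% of the counts of an EX library and 1.90% to 4.68% of an FC library, and its median log2 fold change of 0.87 compares with −0.23 over all kept miRNAs. The log2 ratio of *bta-miR-451* to *bta-miR-23a*, a usual measure of haemolysis in plasma, was 1.62, 0.55 and 0.70 in the EX libraries of replicates 1, 2 and 3 and 0.54, −0.12 and 0.06 in the FC libraries. It holds *bta-miR-451* itself, was higher in EX in every pair and was highest in replicate 1, as the red cell miRNAs were, and the part of haemolysis in these values was not tested. In plasma, more vesicles from a cell type and more of a miRNA per vesicle cannot be told apart.

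Of the 3 lymphocyte miRNAs, 2 were called, both higher in EX, against 3.96% of all kept miRNAs. *bta-miR-150*, which is abundant in mature B and T cells, had the highest mean abundance of both fractions, at 94908, 120314 and 276263 CPM in EX and 65415, 74960 and 194329 CPM in FC. Replicate 3 stood far above the other 2 in both fractions and carried that rank: *bta-miR-16b* was above *bta-miR-150* in replicate 1 of EX and in replicates 1 and 2 of FC. EX was higher in every pair (log2 fold change 0.66, SE 0.05, FDR 0.0038), a 1.58-fold difference, with an FDR of 0.0641 in the fit of 18 libraries. *bta-miR-342*, also known from lymphocytes, followed the same order of replicates, at 18507, 22655 and 48429 CPM in EX and 15275, 16601 and 36498 CPM in FC (log2 fold change 0.46, SE 0.05, FDR 0.00972), and this call was lost with 12 libraries (FDR 0.142), with 18 libraries (FDR 0.341) and without replicate 3 (FDR 0.0543). *bta-miR-155*, a miRNA of activated lymphocytes, had a log2 fold change of 0.41 (SE 0.10) that did not pass the test (FDR 0.0786, and called with RLE size factors).

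Among 5 miRNAs of myeloid cells and of all leukocytes, 3 were called, all higher in FC, against 5.18% of all kept miRNAs. *bta-miR-223*, the main miRNA of neutrophils and monocytes, stood at 26960.5, 38157 and 9652 CPM in EX and at 37101, 47324 and 13252 CPM in FC. Replicate 3 was the lowest in both fractions, and the log2 fold change was −0.33 (SE 0.05, FDR 0.0297). *bta-miR-142-3p*, found in all blood cell lineages, had a log2 fold change of −0.49 (SE 0.09, FDR 0.0350) and *bta-miR-146a*, a regulator of innate immune signalling, −0.49 (SE 0.09, FDR 0.0350). With 18 libraries *bta-miR-223* alone of these was called, and the FDR was 0.140 for *bta-miR-142-3p* (0.0769 with 12 libraries) and 0.202 for *bta-miR-146a* (0.103 without replicate 1). *bta-miR-146b*, which shares the seed of *bta-miR-146a*, had a log2 fold change of 0.28 and was higher in EX in 2 of 3 pairs (FDR 0.615). *bta-miR-142-5p*, from the other arm of the hairpin of *bta-miR-142-3p*, stood at 41763 ± 11820 CPM in EX and 46850.4 ± 17277 CPM in FC (SD, n = 3), with a log2 fold change of −0.06 (SE 0.07, FDR 0.615) that turned to 0.02 with RLE size factors and with DESeq2.

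The miRNAs of gut and liver that share a seed, *bta-miR-192* and *bta-miR-215*, were both called higher in FC, against 5.18% of all kept miRNAs. *bta-miR-192* stood at 39464, 46678 and 19911 CPM in EX and at 75045, 75617 and 30131 CPM in FC, with replicate 3 the lowest in both fractions. The log2 fold change was −0.66 (SE 0.07, FDR 0.00662). *bta-miR-215* stood at 12501, 11020 and 5185 CPM in EX and at 24975, 19962 and 8747 CPM in FC (log2 fold change −0.79, SE 0.07, FDR 0.00403). Some counts of both are fractional, since reads that match several mature sequences were split, and which sequences shared them was not analysed. *bta-miR-122*, the main miRNA of hepatocytes, varied widely between steers, at 20279, 72979 and 12218 CPM in EX and 24776, 75377 and 18934 CPM in FC, and its log2 fold change of −0.24 (SE 0.11) did not pass the test (FDR 0.272, and 0.0382 at the lowest over the other settings). *bta-miR-885*, the other hepatocyte miRNA listed, was at 27.5, 75.1 and 49.6 CPM in EX and 21.2, 19.8 and 25.9 CPM in FC, with a log2 fold change of 1.16 (SE 0.42, FDR 0.184).

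Of the 6 members of the miR-30 family, 3 were called and all 3 were higher in FC, against 5.18% of all kept miRNAs. *bta-miR-30e-5p* stood at 15770, 19172 and 21115 CPM in EX and at 23045, 24116 and 31590 CPM in FC. Every FC library was above every EX library (log2 fold change −0.41, SE 0.06, FDR 0.0247). The log2 fold change was −0.51 for *bta-miR-30a-5p* (SE 0.08, FDR 0.0269) and −0.35 for *bta-miR-30d* (SE 0.06, FDR 0.0301). The family's median was −0.30, and *bta-miR-30b-5p* was the member above 0, at 0.31 (SE 0.14, FDR 0.245), with 421, 576 and 529 CPM in EX and 332, 433 and 548 CPM in FC.

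In the family that shares the seed of *bta-miR-148a*, 2 of 3 members were called higher in FC, against 5.18% of all kept miRNAs. These members, and *bta-miR-101*, *bta-miR-186* and *bta-miR-374a* below, belong to no list fixed here and are named because they passed the test. *bta-miR-148b* stood at 1510, 1455 and 1292 CPM in EX and at 3075, 2408 and 3046 CPM in FC, without overlap (log2 fold change −0.92, SE 0.11, FDR 0.0110). *bta-miR-148a* stood at 2888, 5553 and 2089 CPM in EX and at 6753, 8160 and 3957 CPM in FC (log2 fold change −0.82, SE 0.12, FDR 0.0196). The other member, *bta-miR-152*, had a log2 fold change of −0.24 (SE 0.11, FDR 0.274).

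The other called miRNAs lie in different families. *bta-miR-143*, a miRNA of smooth muscle in the vessel wall, was higher in FC, at 7545, 11410.4 and 2918 CPM in EX and 12536, 17746 and 4953 CPM in FC (log2 fold change −0.63, SE 0.06, FDR 0.00648). *bta-miR-145*, its partner in the same cluster, had a log2 fold change of 0.51 (SE 0.16, FDR 0.132), so the pair had opposite signs, of which 1 passed the test. Of the 4 vessel wall miRNAs *bta-miR-143* was the only call (5.18% of all kept miRNAs were called higher in FC), and the list had 2 members above 0, 2 below and a median of 0.10. *bta-miR-126-3p*, a miRNA of endothelial cells, was higher in EX in every pair at 0.74 (SE 0.32, FDR 0.238), and *bta-miR-126-5p*, from the other arm of its hairpin, was at −0.31 (FDR 0.261). *bta-miR-21-5p*, a miRNA found in most tissues, stood at 71354 ± 14424 CPM in EX and 94149 ± 18778 CPM in FC (SD, n = 3), with a log2 fold change of −0.32 (SE 0.05, FDR 0.0223), and the call was lost with RLE size factors. *bta-miR-186*, *bta-let-7i* and *bta-miR-374a* were higher in FC by log2 fold changes of −0.59, −0.56 and −0.44 (FDR 0.0110, 0.0478 and 0.0478), and the call of *bta-miR-374a* was also lost with RLE size factors (FDR 0.0544). *bta-let-7i* was the only called member of the 9 of the let-7 family, whose median was −0.17, and 1 of 9 is near the 9.15% called of all kept miRNAs. *bta-let-7e* was higher in EX in every pair, at 0.90 (SE 0.19, FDR 0.0605), and was called with RLE factors (FDR 0.0459) and with library totals (FDR 0.0486), where *bta-let-7g* was also called, higher in FC. *bta-miR-101* was higher in EX, at 12997, 9821 and 8968 CPM against 7049, 5494 and 5702 CPM in FC, without overlap (log2 fold change 0.87, SE 0.08, FDR 0.00603). *bta-miR-125b*, the only call among 7 kept members of the miR-10, miR-99/100 and miR-125 groups (9.15% of all kept miRNAs were called), stood at 1568 ± 243 CPM in EX and 1222 ± 82.0 CPM in FC (SD, n = 3; log2 fold change 0.43, SE 0.08, FDR 0.0437), a call also lost with library totals only, no filter and limma (FDR 0.0536 to 0.0794).

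In 9 other lists no member was called, and with 9.15% of all kept miRNAs called and few members in most lists this sets none of them apart. They were the miR-15/16 group with 6 kept members and a median log2 fold change of −0.10, the miR-17-92 cluster and its paralogs with 14 and a median of 0.00, and miR-29 with 5 and −0.10, and with RLE factors these medians lay at −0.02, 0.08 and −0.02. The 6 epithelial miRNAs had a median of −0.08 and the 2 kept of miR-320 and miR-484 −0.07, both at 0.01 with RLE factors, where *bta-miR-205* and *bta-miR-320a* were called higher in EX. With library totals only, *bta-miR-205* was called higher in EX, and *bta-miR-375* of the endocrine list and *bta-miR-1246* of the entries like other small RNAs higher in FC. The 2 endocrine miRNAs had −0.67, the 5 kept miRNAs of skeletal and heart muscle −0.58, 15 kept of 57 listed miRNAs of the imprinted DLK1-DIO3 cluster −0.41, and the 2 kept of 6 entries that resemble other small RNAs −0.47. The muscle miRNAs took 0.0104% to 0.0122% of the counts in EX and 0.0117% to 0.0196% in FC. Outside the 3 names, the miR-181 family had 3 kept members with a median of −0.21 and no call, and the bovine entries of late date had 10 kept members with a median of −0.59, of which *bta-miR-12034* was the only call, near the 9.15% of all kept miRNAs.

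**Figure D4:**
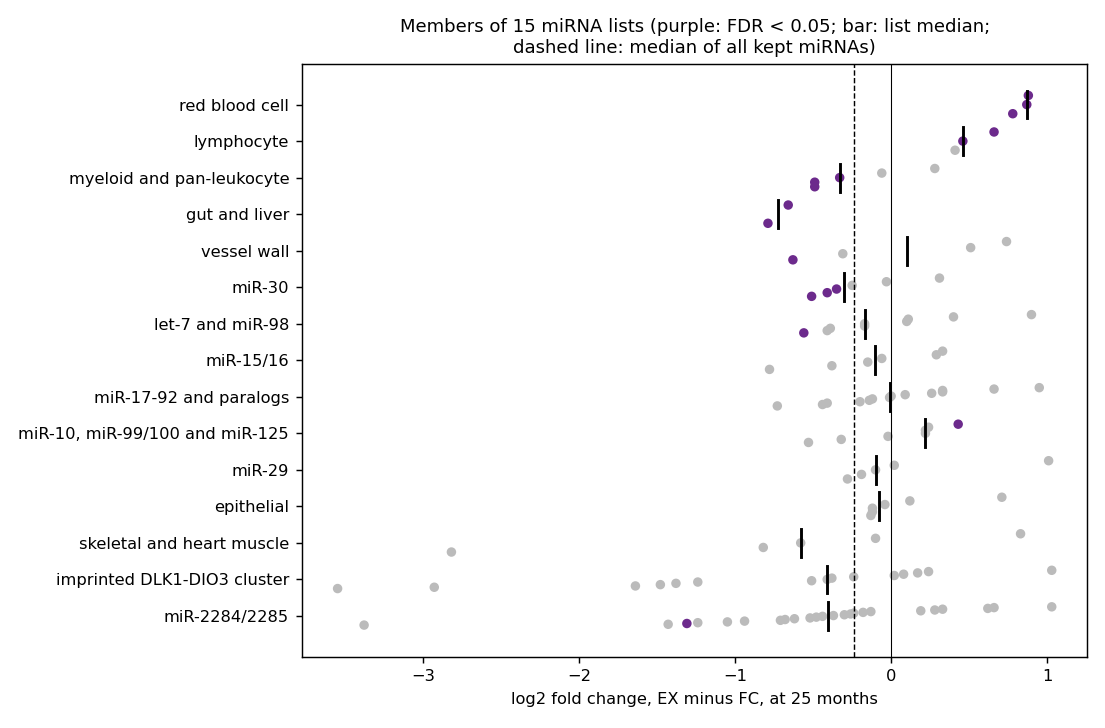
Log2 fold change, EX minus FC, of the kept members of 15 lists of miRNAs at 25 months, without the 3 crosswise names, with called members (FDR under 0.05) in purple, a bar at the median of each list and a dashed line at the median of all kept miRNAs (−0.24 without these names). All 3 red cell members lie between 0.78 and 0.88, and the called members of the myeloid, gut and liver, vessel wall, miR-30 and let-7 lists lie below 0.

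Of the 5 miRNAs that the study relates to carcass traits or used as the qPCR reference, *bta-miR-150* was called, as given above. *bta-miR-423-3p* stood at 3027, 2909 and 3338 CPM in EX and at 2446, 2300 and 1795 CPM in FC, without overlap, but its log2 fold change of 0.59 (SE 0.14) did not pass the test (FDR 0.0713). It was called with CPM above 5 in all 6 libraries, the likelihood ratio test, limma and DESeq2 and without replicate 1, at FDR 0.000771 to 0.0339. *bta-miR-222* had a log2 fold change of −0.31 (SE 0.09, FDR 0.118, and 0.0485 at the lowest over the other settings), with 766, 974 and 431 CPM in EX and 988, 1267 and 579 CPM in FC, lower in EX in every pair. *bta-miR-93*, the qPCR reference, stood at 14914, 10766 and 8485 CPM in EX and at 14204, 10623 and 11005.5 CPM in FC. EX was higher in 2 pairs and FC in the other, and the log2 fold change was −0.01 (SE 0.11, FDR 0.931).

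The most abundant miRNAs were largely shared. Of the 10 most abundant of each fraction, 8 were the same: *bta-miR-150*, *bta-miR-16b*, *bta-miR-21-5p*, *bta-miR-142-5p*, *bta-miR-192*, *bta-miR-122*, *bta-miR-29a* and *bta-miR-342*. The EX list also held *bta-miR-486* and *bta-miR-451*, and the FC list *bta-miR-223* and *bta-miR-30e-5p*. *bta-miR-150* took a mean of 16.4% of the counts in EX and 11.2% in FC, and *bta-miR-16b* 12.8% and 11.04% (log2 fold change 0.29, SE 0.11, FDR 0.187, and 0.0177 at the lowest over the other settings). *bta-miR-29a* had a log2 fold change of −0.10 (SE 0.05, FDR 0.313). The 10 most abundant miRNAs took 54.8%, 56.1% and 66.6% of the counts in the EX libraries and 52.4%, 57.8% and 64.1% in the FC libraries of replicates 1, 2 and 3. The mean paired difference was 1.09 ± 2.40 percentage points (SD, n = 3 pairs; exact two-sided sign-flip test, p = 0.5), replicate 2 had the higher share in FC, and the difference was 0.372 to 2.47 when 1 replicate was left out and 4.48 in TMM-normalized CPM.

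Fewer miRNAs had any count in EX, with 411, 381 and 418, than in FC, with 671, 582 and 615. The paired difference was 219 ± 35.3 miRNAs (SD, n = 3 pairs; exact two-sided sign-flip test, p = 0.25, the smallest p that 3 pairs allow). With each FC library thinned to the depth of the EX library of its pair, the numbers were 391, 365 and 401 in EX, after rounding of the counts, and 577, 520 and 539 in FC, so the gap was 160 ± 24.3. Above 5 CPM the fractions were close, with 334, 321 and 308 in EX and 338, 335 and 312 in FC. Among the kept miRNAs, 47 had no count in at least 1 EX library and 1 had none in at least 1 FC library, and 1 after thinning. The 1 in FC was *bta-miR-194b*, and the 47 include *bta-miR-194*, both of them crosswise names. EX libraries also differed more from each other, with a root mean square difference of log2(CPM + 1) over the kept miRNAs of 1.48 to 1.64, against 0.498 to 0.885 between FC libraries and 1.33 to 1.63 between the 2 libraries of a plasma sample. These ranges include the 3 crosswise names, whose values lie far apart in the 2 libraries of a plasma sample. The part of depth in these ranges was not tested. Of the kept miRNAs, 49 with |log2 fold change| > 1 were not called, 40 of them higher in FC and 27 of them at 0 in at least 1 EX library, and their median abundance was 10.5 CPM. The most abundant of them, *bta-miR-1246*, an entry that resembles a fragment of another small RNA, stood at 939, 763 and 1185 CPM in EX and 2342, 2783 and 1563 CPM in FC, without overlap (log2 fold change −1.11, SE 0.30, FDR 0.0986).

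Sequence features were compared over the 325 kept miRNAs without the 3 names, as a description. The 11 miRNAs higher in EX had from 16.7% to 89.5% G and C, with a median of 50%, and the 16 higher in FC from 27.3% to 50%, with a median of 40.9%, the median of all kept being 45.5%. Across the 325 miRNAs, GC content and log2 fold change had a Pearson's r of 0.06 and a Spearman's rho of 0.11, a weak relation among points that share the same 6 libraries. Of the 27 kept miRNAs of at most 20 bases, 3 were called, the 2 candidates and *bta-miR-12034*, all higher in EX, beside 11 higher in EX and 16 higher in FC of all 325, and the median log2 fold change of the 27 was −0.20. The motif GGAG, known from exosomal sorting, was held by 126 of 1071 listed miRNAs (11.8%) and 28 of the kept ones (8.62%), of which 2 were called, *bta-miR-12034* and *bta-miR-184*, both higher in EX, with a median of −0.10. The motif CCCU was held by 93 of the 1071 (8.68%) and 36 of the kept (11.1%), with 2 called, both higher in EX, and a median of −0.12. GGCU was held by 104 of the 1071 (9.71%) and 26 of the kept (8%), with 1 called, higher in FC, and a median of −0.20. These letters were searched on the miRNA strand alone. With 27 called of all 325 and a median of −0.24, the motif counts are near those of all kept miRNAs.

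The comparison between fractions was then set beside the same comparison in the plasma of the same steers taken at 20 and 30 months, each fitted on its own 6 libraries. At 20 months, 27 of the 27 miRNAs called at 25 months outside the 3 names had the same direction, and 20 were also called there, where 10.7% of all 328 were called. Among all 325 the direction was the same for 224. At 30 months, 22 of the 27 had the same direction and 15 of these were called, where 7.01% of all 328 were called, and among all 325 the direction was the same for 219. The libraries of the ages are separate, but the steers are the same. *candidate-miR-40* had a log2 fold change of 3.96 at 20 months (SE 0.33, FDR 0.00825) and 2.82 at 30 months (SE 0.14, FDR 0.000287). *candidate-miR-38* had 4.28 (SE 0.66, FDR 0.0241) and 2.73 (SE 0.23, FDR 0.00211). *bta-miR-12034* had 1.39 at 20 months with a wide error (SE 1.08, FDR 0.459) and 4.95 at 30 months (SE 0.59, FDR 0.00615). *bta-miR-184* had 2.35 at 20 months (SE 0.32, FDR 0.0189), while at 30 months it was at 0 in all EX libraries and at 0, 5.81 and 28.7 CPM in FC (FDR 0.457). *bta-miR-2284w* had −0.33 (SE 0.19, FDR 0.332) and −0.27 (SE 0.91, FDR 0.895), so that its call stood at 25 months alone, although neither difference between ages passed the test (FDR 0.997 and 0.361).

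Of the 5 called markers of red cells and lymphocytes, all had the same direction at 20 months, and *bta-miR-144*, *bta-miR-150* and *bta-miR-342* had values below 0 at 30 months, none of them called. *bta-miR-150* had a log2 fold change of 0.97 at 20 months (SE 0.06, FDR 0.00284), 0.66 at 25 months and −0.10 at 30 months (SE 0.21, FDR 0.813), and *bta-miR-342* had 1.13, 0.46 and −0.14. The abundance of *bta-miR-150* itself was lower at 30 months, at 13217 ± 5250 CPM in EX and 11855 ± 6094 CPM in FC (SD, n = 3), against 163828 ± 98196 and 111568 ± 71832 CPM at 25 months. For *bta-miR-150* the difference of EX minus FC between 25 and 30 months was 0.72 (SE 0.24) and did not pass the test (FDR 0.0988). *bta-miR-486* had 0.68, 0.88 and 0.46, and was called at each age. *bta-miR-192* had −0.66, −0.66 and −0.80 and *bta-miR-215* −0.80, −0.79 and −1.07, both called at each age. *bta-miR-148a* and *bta-miR-148b* were also called at each age, at −0.98 and −1.29 at 30 months.

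**Figure D5:**
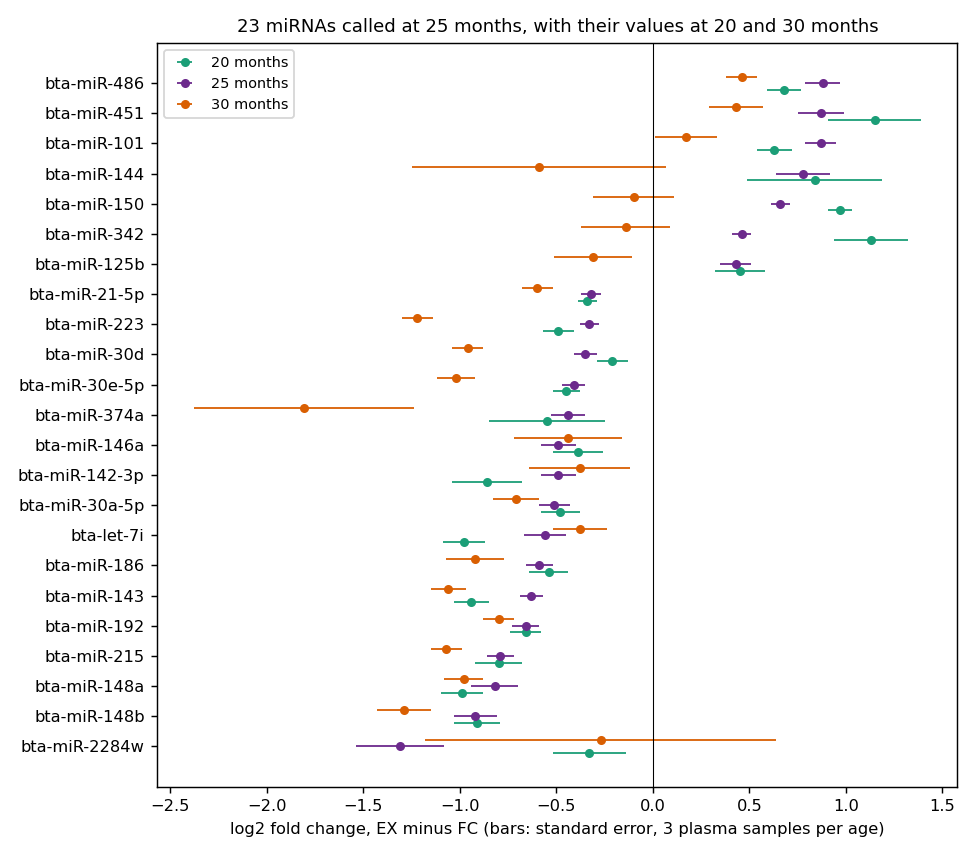
Log2 fold change, EX minus FC, with standard errors derived from the test (3 plasma samples per age) at 20, 25 and 30 months for 23 of the 27 miRNAs called at 25 months. The 4 with log2 fold changes above 3 at 25 months are left out for scale. The values at 20 months lie on the side of 0 of those at 25 months for all 23, and at 30 months *bta-miR-144*, *bta-miR-150*, *bta-miR-342* and *bta-miR-125b* lie below 0.

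In the test of the difference itself, with all 18 libraries and the plasma sample as a block, EX minus FC at 25 months differed from that at 20 months for 0 of 328 miRNAs (0.0%) in the quasi-likelihood test of edgeR. There were 12 at an unadjusted p under 0.05, and the likelihood ratio test called 1, *bta-miR-12034*, and DESeq2 2, *bta-miR-12034* and the crosswise *bta-miR-194*. Between 25 and 30 months it differed for 18 of 328 (5.49%), 16 higher at 25 months (4.88%) and 2 lower (0.61%), and the number was also 18 without the 3 names. DESeq2 called 42, the likelihood ratio test 38 and the fit without the plasma block 28, and with library totals only the 25 calls were 16 higher and 9 lower at 25 months. Leaving out any of the 3 steers gave between 0 and 2, the 2 being *bta-miR-320a* and *bta-miR-150* without replicate 3. Of the 16, 14 had no count in any EX library at 30 months, and the other 2 had at most 1 count in any of them. *bta-miR-184* belongs to the 14, with 705, 180 and 125 CPM in EX at 25 months and 0 in all 3 EX libraries at 30 months. Among all 328 miRNAs, 49 had no count in any EX library at 30 months, whose totals were 991354 to 1988408 counts. The 328 were kept for their values at 25 months alone, which favours miRNAs present at that age over those present at 30 months, so the split of the calls and the 49 are descriptions of the kept miRNAs. The part of this selection and of depth in these calls was not tested.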

How the data were processed

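Small RNA of the EX and FC fractions was sequenced from 3 steers at 20, 25 and 30 months. The authors trimmed the reads (cutadapt 5.0, Trimmomatic 0.39), checked them (FastQC 0.12.1), assigned them to mature miRNAs with miRDeep2 and deposited expected counts, not whole where reads are shared, and CPM from edgeR 4.0.16. Counts that stood 1 row away from the CPM table were recomputed from it, within a relative tolerance of 0.001 or 0.02 counts.

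Counts were rounded, and miRNAs above the limit of 5 CPM were fitted with edgeR 4.0.16 (TMM, quasi-likelihood, plasma sample as block) in R 4.3.3, with limma 3.58.1 and DESeq2 1.42.0 as alternatives, and the script was tested on simulated data. The SE of a log2 fold change was derived from the test, as its size divided by the square root of the quasi-likelihood F. EX and FC libraries of a number come from the same plasma sample, and their deviations from the fraction means correlated at 0.34, 0.23 and 0.44 over 328 miRNAs. P-values cover the spread between these 3 pairs. No library was a copy of another (lowest chi-square per degree of freedom 217 over all 153 pairs of libraries).

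DE-miRNAs had FDR under 0.05 and |log2 fold change| > 1. Named were the DE-miRNAs that differed alike in all pairs (up to 10 each way), the 10 most abundant of each fraction, members of the lists (called or most abundant), the miRNAs of the study's trait analysis, up to 5 each way that differed between ages, and those next to the inclusion limit. The members and lists were chosen with earlier results of these data known. Coordinates and targets were not analysed here.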

Additional observations from a re-analysis of the deposited data

Results flagged for a closer look

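The difference between EX and FC changed from 25 to 30 months for 18 miRNAs in the interaction test of edgeR over 18 libraries. The limits were an FDR under 0.05 and a log2 difference above 1 in size, and the 18 were flagged for passing them. All tested miRNAs were kept for their values at 25 months, which favours those present at that age. Of the 16 with the higher EX minus FC at 25 months, 14 had no count in any EX library at 30 months. Leaving out any 1 replicate gave 0 to 2 calls. The 5 with the smallest FDR that had the higher EX minus FC at 25 months were *bta-miR-1249* (FDR 0.0078), *bta-miR-184* (FDR 0.0078), *bta-miR-132* (FDR 0.0138), *bta-miR-491* (FDR 0.0183) and *bta-miR-6120-3p* (FDR 0.0183). All 5 had 0 counts in the 3 EX libraries at 30 months, so no fold is given for the change between ages. At 25 months alone, *bta-miR-1249*, *bta-miR-132* and *bta-miR-491* were not called between fractions. Their log2 fold changes, EX minus FC, were −0.34, −0.09 and −0.10. The log2 fold change at 25 months was 1.29 for *bta-miR-6120-3p*, also not called, and 4.15 for *bta-miR-184*, a DE-miRNA. In EX at 25 months *bta-miR-1249* stood at 61.8, 62.6 and 54.6 CPM, *bta-miR-132* at 32.0, 71.8 and 71.0 CPM, *bta-miR-491* at 14.2, 51.2 and 53.3 CPM and *bta-miR-6120-3p* at 69.3, 25.6 and 20.9 CPM.

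The 2 with the lower EX minus FC at 25 months were *bta-miR-320a* (log2 difference −1.22, standard error 0.18, FDR 0.0078) and *bta-miR-193a-5p* (log2 difference −1.43, standard error 0.31, FDR 0.0251). *bta-miR-320a* stood at 3148, 2160 and 1480 CPM in EX at 25 months and at 6178, 7370 and 4869 CPM at 30 months, while FC stood at 2556, 1830 and 1233 CPM and at 1751, 1634 and 1819 CPM.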

How the results depend on the processing

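The 27 miRNAs called at FDR under 0.05 outside the 3 crosswise names kept their direction in each of 18 other settings that tested them (26 of them were tested at CPM above 5 in all 6 libraries). The 8 DE-miRNAs became 5 without these names or with their EX values moved by 1 name, both chosen after seeing the data (1 higher in FC each time), 16 with DESeq2 (10 higher in EX and 6 in FC) and 0 with the count rows as deposited, where both directions and the calls at FDR alone were 0. The number higher in FC was 5 with the likelihood ratio test and with limma on log2(CPM + 1) or log2(CPM + 5), and 0 with all 18 libraries. Without the replicate block, that is without the pairing, it was 1, and the 30 calls at FDR alone became 7 (6 higher in EX and 1 in FC). These 30 became 67 with DESeq2 (41 and 26) and 46 with limma on log2(CPM + 5). Their number higher in EX was 25 with RLE factors, 23 with CPM above 5 in all 6 libraries, 20 with the likelihood ratio test and 8 with all 18 libraries, and their number higher in FC was 26 with library totals only and 28 or 29 with limma. Leaving out 1 replicate gave 1 to 16 DE-miRNAs (0 to 9 higher in EX and 1 to 7 in FC) and 1 to 45 at FDR alone (0 to 20 and 1 to 25), lowest without replicate 2, where none of the 27 was called. A fit of 2 pairs leaves few degrees of freedom.

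For 25 against 20 months, DESeq2 gave 2, the likelihood ratio test 1 and leaving out a replicate 0 to 2. For 25 against 30 months, DESeq2 gave 42, the likelihood ratio test 38, the fit without the plasma block 28 and leaving out a replicate 0 to 2. EX minus FC in the number of miRNAs with a count was −159.7 with FC thinned and −7.33 above 5 CPM. The share of the 10 most abundant differed by 4.48 percentage points in TMM-normalized CPM. The log2 fold change of *bta-miR-142-5p* turned to 0.02 with RLE factors and DESeq2, and that of *bta-miR-93* to 0.01 with CPM above 5 in all libraries, 0.07 with RLE factors and DESeq2, 1.71 with the rows as deposited and between −0.13 and 0.11 when 1 replicate was left out, above 0 without replicate 3, none of them called. Beyond these constructions the cause was not tested. In an EX library, a miRNA near 5 CPM rests on about 10 counts.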
